A study of Mus musculus with 14 samples.

Results

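The genes described here are 8 genes that handle circulating lipid at the cell surface and carry fatty acid into the cell: *Lpl*, *Gpihbp1*, *Angptl4*, *Cd36*, *Slc27a1*, *Fabp4*, *Fabp5* and *Acsl1*. They were taken by symbol from the 23441 genes of the deposited matrix, all 8 were found there, and all 8 were among the 17671 of 55401 counted genes that passed the filter on low counts. RNA came from marrow plugs of the distal tibia of male mice of 24 weeks on a mixed C57BL6/SJL background, and each of the 14 samples was a pool of 2 mice. BMAd-Pnpla2+/+ mice kept *Pnpla2*, the gene of the triglyceride lipase ATGL, and gave 4 samples fed ad libitum (AL) and 4 from a 30% caloric restriction (CR) of 6 weeks. BMAd-Pnpla2-/- mice carried floxed *Pnpla2* and a Cre inserted in the *Adipoq* locus, which FLPo driven by Osterix turns on to direct deletion to bone marrow adipocytes (BMAds). They gave 3 samples AL and 3 with CR. In reporter mice of the study this Cre also labelled some stromal or dendritic cells of the marrow. The study names incomplete deletion in BMAds as a possibility. The insertion lowers adiponectin expression, recombination by this Cre is less frequent in young mice, and per the methods of the study mice of both genotypes carried FLPo and the Cre and differed in the floxed alleles.

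Lipoprotein lipase, the product of *Lpl*, is made by adipocytes and other parenchymal cells and frees fatty acids from the triglyceride of circulating lipoproteins. GPIHBP1 carries it across the capillary endothelium and holds it at the luminal surface, and ANGPTL4 inactivates it. CD36 and the transport protein FATP1 (*Slc27a1*) move fatty acids into cells, FABP4 and FABP5 bind them in the cytosol, and ACSL1 joins them to coenzyme A. *Fabp4* is a classical adipocyte gene that endothelial cells and macrophages also express, *Cd36* is found in all of these cells as well, and *Fabp5* is expressed in many cell types. The data are from whole marrow plugs, so fewer cells of a type and less RNA of a gene per cell cannot be told apart.

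Between 18898324 and 21665553 read pairs per sample were counted on 1 gene without regard to strand, and values are given as CPM, counts per 1000000 after TMM scaling. The 3 BMAd-Pnpla2-/- CR libraries kept no strand information, with 50.1% to 50.5% of stranded gene counts on the first strand against 4.30% to 4.62% in the other 11, so unstranded counts were used throughout. This difference falls on 1 group, and its source is not given in the sources used here. The methods of the study describe the sequencing as strand specific and name no exception. The part of this difference in any comparison with that group cannot be told apart from genotype and diet. *Pnpla2* itself ranged from 174 to 301 CPM in BMAd-Pnpla2+/+ AL, 502 to 1015 in BMAd-Pnpla2+/+ CR, 131 to 170.1 in BMAd-Pnpla2-/- AL and 177 to 267 in BMAd-Pnpla2-/- CR samples, with every -/- sample under every +/+ sample of its diet. All 12 adipocyte markers were detected in each group, beside far larger sums of the neutrophil and erythroid markers. The library BMAd-Pnpla2+/+ CR replicate 4 stood apart in its group, with an adipocyte marker sum of 1549 CPM against 3084 to 4213 in the other 3. BMAd-Pnpla2+/+ AL replicate 1 did so in the other direction, with 1733 CPM against 622 to 702.

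The quasi-likelihood test of edgeR was run in 1 model of the 4 groups, and padj is its p-value adjusted over all 17671 genes. A gene was called changed where padj was under 0.05 and the log2 fold change was above 1 or below -1.

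Per kilobase of the longest coding transcript, *Fabp4* was the most abundant of the 8 in every group, with 277 ± 62.5 CPM per kilobase (SD, n = 4) in AL and 1135 ± 334 (SD, n = 4) in CR marrow of BMAd-Pnpla2+/+ mice. *Lpl* and *Acsl1* followed, at 74.9 ± 19.7 and 70.7 ± 6.80 CPM per kilobase (SD, n = 4) in BMAd-Pnpla2+/+ AL samples, where their ranges overlapped. *Fabp5* stood at 47.8 ± 6.86 and *Cd36* at 38.3 ± 4.21 CPM per kilobase in the same samples, also with overlapping ranges, and *Slc27a1*, *Angptl4* and *Gpihbp1* lay together between 12.99 and 14.8 on average. With CR *Fabp5* went from the fourth to the seventh place in BMAd-Pnpla2+/+ mice, and *Cd36*, *Slc27a1* and *Gpihbp1* came to stand before it on average, although the ranges of *Slc27a1* and *Gpihbp1* overlapped with that of *Fabp5*. The ranges of *Fabp4* did not overlap with those of the next gene in any of the 4 groups. This order depends on the length used, which for *Fabp4* was 896 bases, while its merged annotated exons span 4489 bases. In CPM without division by length, *Lpl* was above *Fabp4* on average in every group, at 308 and 248 CPM in BMAd-Pnpla2+/+ AL samples.

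**Figure D1:**
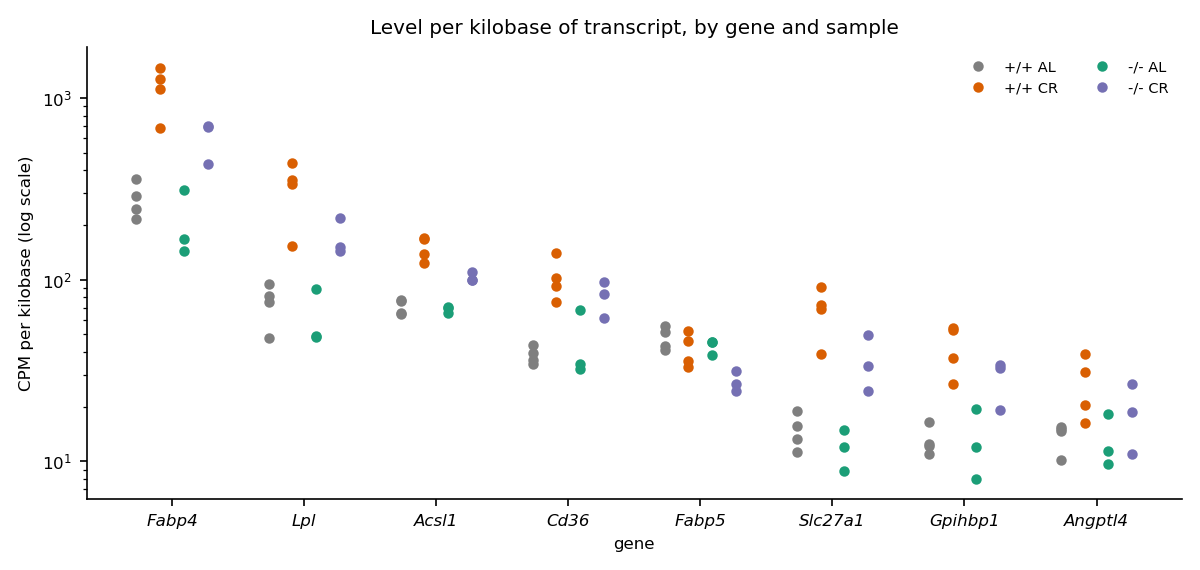
Levels of the 8 genes as CPM per kilobase of the longest coding transcript, on a log scale, with 1 point per sample and groups by colour. *Fabp4* lies above the other genes in every group, and *Fabp5* is the only gene whose mean is lower with CR than with AL feeding in both genotypes.

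The first comparison asked how CR changed these genes in mice with an intact *Pnpla2*. Transcripts of the lipase, its endothelial carrier, both uptake genes, *Fabp4* and *Acsl1* rose, from 2.11-fold (*Acsl1*) to 4.60-fold (*Slc27a1*). Of the 8 genes, 6 met the criteria and all 6 were higher with CR, while 7.33% of all tested genes were called higher and 9.28% were called in either direction. By padj alone 7 of the 8 passed, where 26.0% of all genes did, and the eighth, *Fabp5*, was at a log2 fold change of -0.20. The median log2 fold change of the 8 was 1.57, beside 0.00 over all genes. In 7 of them every CR sample was above every AL sample, as in 12.4% of all genes, and none was lower throughout, as 10.4% of all genes were.

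*Lpl* (ENSMUSG00000015568.16; chromosome 8, 68880491 to 68907448 of mm10, forward strand, 10 exons in the coding transcript) measured 389.8, 310.2, 335 and 197 CPM with AL feeding and 1462, 1387, 1801 and 633 CPM with CR. Replicate 4 was lowest on both diets, and the diets did not overlap. The log2 fold change was 2.10 (standard error 0.32, padj = 0.00179).

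*Gpihbp1* (ENSMUSG00000022579.10; chromosome 15, 75596628 to 75599481, forward strand, 4 exons), the endothelial partner of the lipase, was at 27.2, 19.99, 18.1 and 20.5 CPM with AL feeding and at 61.1, 89.9, 87.3 and 44.2 CPM with CR. The lowest CR sample was above the highest AL sample, and the log2 fold change was 1.72 (standard error 0.29, padj = 0.00299). *Angptl4* (ENSMUSG00000002289.16; chromosome 17, 33773750 to 33781830, reverse strand, 7 exons), the inhibitor of the lipase, had AL values of 51.3, 48.5, 49.7 and 33.6 CPM and CR values of 53.5, 103, 129 and 67.6 CPM. One of its CR samples lay only just above the AL range. With a log2 change of 0.95 (standard error 0.31, padj = 0.0401) it passed padj and fell short of the fold criterion, and it passed both with total counts in place of TMM and when CR replicate 1 or CR replicate 4 was left out (1.01, 1.08 and 1.06). Over its 23 alternatives padj ran from 0.0127 to 0.132. Without CR replicate 4 it made 7 of the 8 called and 7 by padj, where 12.9% and 34.2% of all genes were.

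Of the uptake genes, *Cd36* (ENSMUSG00000002944.15; chromosome 5, 17781690 to 17888801, reverse strand, 15 exons) was at 122, 149, 116 and 134 CPM in AL marrow and at 346, 312, 476 and 257 CPM with CR. The AL samples lay close together, and the CR samples were 2.67-fold higher (log2 1.42, standard error 0.25, padj = 0.00327). *Slc27a1* (ENSMUSG00000031808.7; chromosome 8, 71568882 to 71587302, forward strand, 14 exons) went from 52.8, 31.5, 43.9 and 37.1 CPM to 193, 202, 256 and 109.5 CPM. Its log2 fold change of 2.20 (standard error 0.28, padj = 9.3e-04) was the largest of the 8 in this comparison.

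Among the binding proteins, *Fabp4* (ENSMUSG00000062515.3; chromosome 3, 10204088 to 10208576, reverse strand, 4 exons) had AL values of 322, 193, 259 and 219 CPM and CR values of 999, 1139, 1318 and 614 CPM. The diets were far apart, with a log2 change of 2.03 (standard error 0.29, padj = 0.00144). *Fabp5* (ENSMUSG00000027533.10; chromosome 3, 10012548 to 10016607, forward strand, 4 exons), its neighbour on the same chromosome, had 40.6, 50.9, 54.8 and 42.5 CPM in AL and 32.6, 45.2, 51.8 and 35.0 CPM in CR samples. Here the diets overlapped, and the log2 fold change of -0.20 (standard error 0.15, padj = 0.343) was not past the threshold. *Fabp5* shares 2.19% of its 100-base windows with 2 other annotated genes, Gm14328 and Gm6166, so that reads from those windows may not have been counted.

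*Acsl1* (ENSMUSG00000018796.13; chromosome 8, 46471037 to 46536051, forward strand, 21 exons), which activates long-chain fatty acids, had the least spread of the genes that rose. Its AL values were 298, 299, 252 and 254 CPM and its CR values 649.5, 538, 661 and 483 CPM. The log2 fold change was 1.08 (standard error 0.11, padj = 1.9e-04), close to the fold criterion, and it was 0.98 with CR replicate 1 left out. *Acsl1* shares 1039 exon bases with Gm45244 on the opposite strand, and in the 11 libraries with strand 0.655% of the counts of *Acsl1* lay on the first strand.

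**Figure D2:**
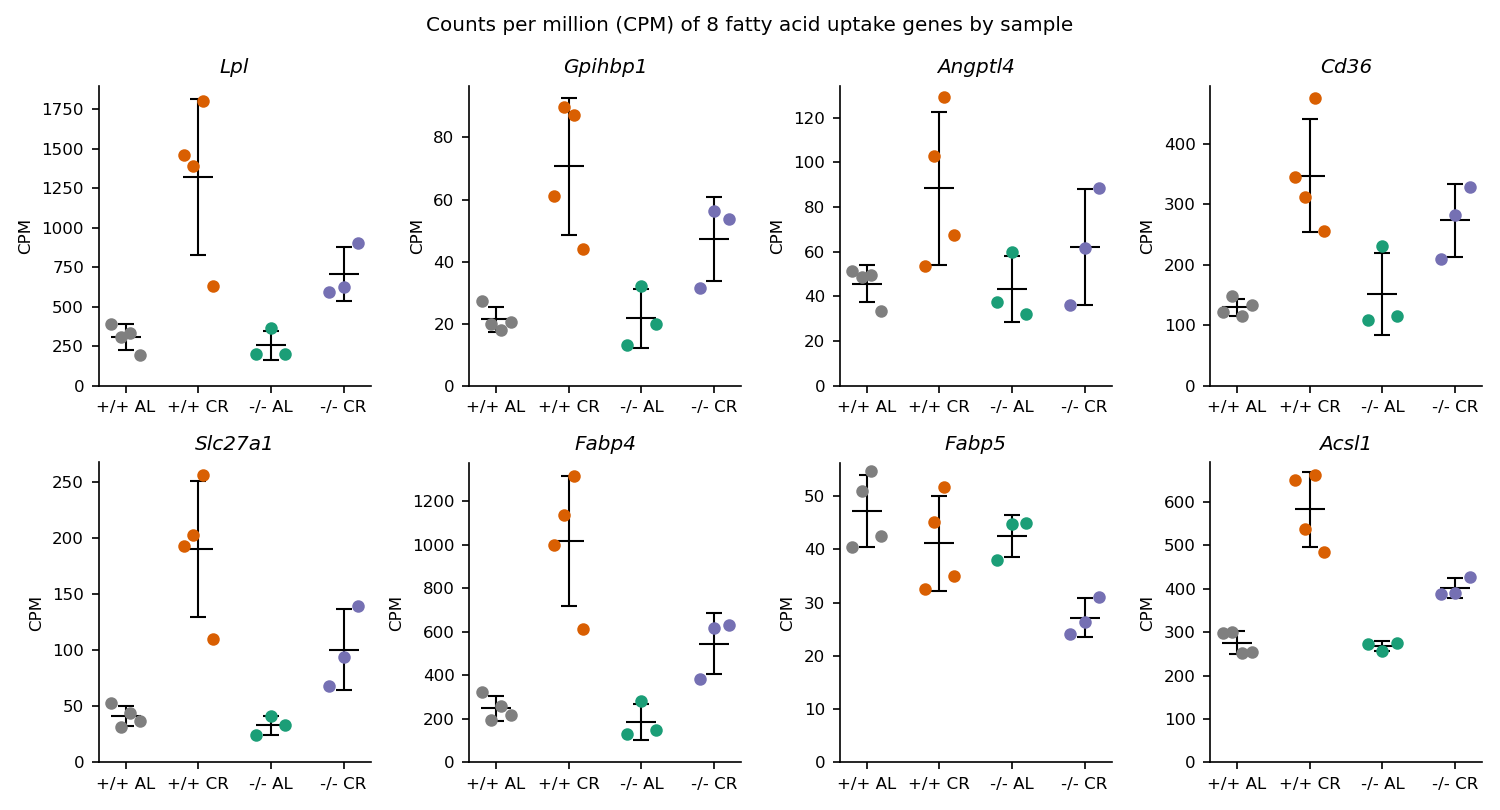
CPM of each of the 8 genes in the 14 samples, with 1 panel per gene and 1 point per sample; black bars are the mean ± SD of the 4 BMAd-Pnpla2+/+ or 3 BMAd-Pnpla2-/- samples. CR points lie above AL points in both genotypes for *Lpl*, *Slc27a1*, *Fabp4* and *Acsl1*, and *Fabp5* lies below in BMAd-Pnpla2-/- mice and overlaps in BMAd-Pnpla2+/+ mice.

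RefSeq windows of 300 bases around a start site (250 before it and 50 after, GRCm38.p6) were at hand for 3 of the 8 genes, with 1 window for *Cd36*, 3 for *Slc27a1* and 2 for *Acsl1*. *Lpl*, *Gpihbp1*, *Angptl4*, *Fabp4* and *Fabp5* were not among them. The window of *Cd36* and the first of *Acsl1* are shown, since 1 holds the receptor motif searched here and the other the most GC boxes of the 6. Each was searched on both strands for the pair of PPAR and RXR half-sites, 2 copies of AGGTCA with 1 base between them and at most 2 mismatches, and for the GC box GGGCGG. Capitals mark both. The *Cd36* window is chr5:17835847-17836146 on the reverse strand and the first *Acsl1* window is chr8:46470787-46471086 on the forward strand, each printed 5′ to 3′ along its gene.
Cd36: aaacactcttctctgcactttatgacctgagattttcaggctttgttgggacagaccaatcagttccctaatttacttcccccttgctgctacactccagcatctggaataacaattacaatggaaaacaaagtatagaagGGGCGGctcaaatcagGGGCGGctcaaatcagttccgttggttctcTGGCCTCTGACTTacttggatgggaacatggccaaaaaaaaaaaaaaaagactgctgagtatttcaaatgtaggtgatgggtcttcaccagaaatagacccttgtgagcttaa
Acsl1: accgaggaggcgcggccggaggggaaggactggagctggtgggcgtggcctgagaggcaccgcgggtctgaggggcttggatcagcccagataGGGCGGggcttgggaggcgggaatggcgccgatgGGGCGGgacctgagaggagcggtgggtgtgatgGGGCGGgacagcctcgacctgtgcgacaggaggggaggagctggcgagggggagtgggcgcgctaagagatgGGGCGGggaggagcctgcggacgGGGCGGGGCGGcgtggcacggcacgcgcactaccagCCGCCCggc
The *Cd36* window is 43.0% G and C, with 2 GC boxes. Its best match to the half-site pair has 2 mismatches, lies on the strand opposite to the gene and begins 63 bases before the start. Only the best match of each window was recorded. A match of this kind is in 3.86% of the 32851 RefSeq windows of this length. In the first *Acsl1* window the G and C content is 74.0% (median of all windows 52.7%), there are 7 GC boxes, of which the last pair on the forward strand overlaps, and no match to the half-site pair. At least 1 GC box is in 35.7% of all windows. The second *Acsl1* window, chr8:46490716-46491015, is 50% G and C and holds 0 GC boxes and no match to the pair. None of the 3 *Slc27a1* windows holds the half-site pair within 2 mismatches, and they hold 0, 1 and 3 GC boxes. A match in the letters is a description and does not show that a factor binds there.

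The same diet contrast was made in BMAd-Pnpla2-/- mice. *Slc27a1*, *Fabp4*, *Lpl* and *Gpihbp1* met the criteria again, all higher with CR, and *Acsl1* and *Fabp5* passed padj without the fold criterion, in opposite directions. That is 4 of the 8 called, where 2.62% of all genes were called higher and 3.53% in either direction, and 6 of 8 by padj alone, where 11.6% of all genes passed. The median log2 fold change was 0.99, beside 0.05 over all genes.

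For the lipase, *Lpl* had 202, 364 and 199.8 CPM with AL feeding and 593, 626 and 902 CPM with CR. The diets did not overlap, and the log2 fold change was 1.47 (standard error 0.36, padj = 0.0235). *Gpihbp1* had 13.3, 32.1 and 19.8 CPM in AL and 31.6, 56.2 and 53.9 CPM in CR samples, so that AL replicate 2 was just above CR replicate 1. Its log2 fold change was 1.12 (standard error 0.33, padj = 0.0472), at the edge of both criteria, and the call was lost under 10 of 22 alternatives. *Angptl4*, at 37.7, 59.9 and 32.1 CPM with AL and 36.3, 61.6 and 88.4 CPM with CR, overlapped widely and had a log2 change of 0.52 (standard error 0.36, padj = 0.363).

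*Cd36* was at 109, 231 and 116 CPM in AL and 210.0, 283 and 329.8 CPM in CR marrow, and AL replicate 2 lay inside the CR range. The log2 fold change of 0.85 (standard error 0.28, padj = 0.0656) was not past the threshold, and without AL replicate 2 it was 1.24 (padj = 0.0135, range over 22 alternatives 0.0135 to 0.248) and met the criteria. *Slc27a1* went from 24.8, 41.7 and 33.3 CPM to 68.2, 94.0 and 139 CPM, with no overlap and a log2 change of 1.60 (standard error 0.32, padj = 0.0123). *Fabp4* went from 129, 281 and 149.6 CPM to 386, 620.4 and 632 CPM, again without overlap, by 1.55 on the log2 scale (standard error 0.33, padj = 0.0149).

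*Acsl1* was at 273, 256 and 276 CPM in AL and at 388, 389 and 428 CPM in CR samples, a narrow spread in both. The log2 fold change was 0.58 (standard error 0.13, padj = 0.0149), under the fold criterion. *Fabp5* measured 38.0, 44.7 and 45.0 CPM with AL feeding and 24.0, 26.3 and 31.1 CPM with CR, with all CR samples below all AL samples. Its log2 fold change was -0.65 (standard error 0.18, padj = 0.0334), again under the fold criterion. Higher in every CR sample than in every AL sample were 4 of the 8 genes (20.5% of all genes), and 1 was lower throughout (17.4% of all genes).

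These 4 calls rested on few samples. With AL replicate 1, AL replicate 3 or CR replicate 3 of the BMAd-Pnpla2-/- mice left out, none of the 8 met the criteria or had padj under 0.05, while the share of all genes called fell to 0.917%, 1.01% and 0.673%. Without CR replicate 2 it was 2 of the 8 (1.68% of all genes), and without AL replicate 2 it was 5 (4.21% of all genes). The calls over all genes numbered 624 with all samples and 167, 184, 122, 305 and 766 in these 5 fits. For *Slc27a1* the log2 fold change stayed between 1.28 and 1.81 over the 22 alternatives, with padj between 6.9e-05 and 0.0585.

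**Figure D3:**
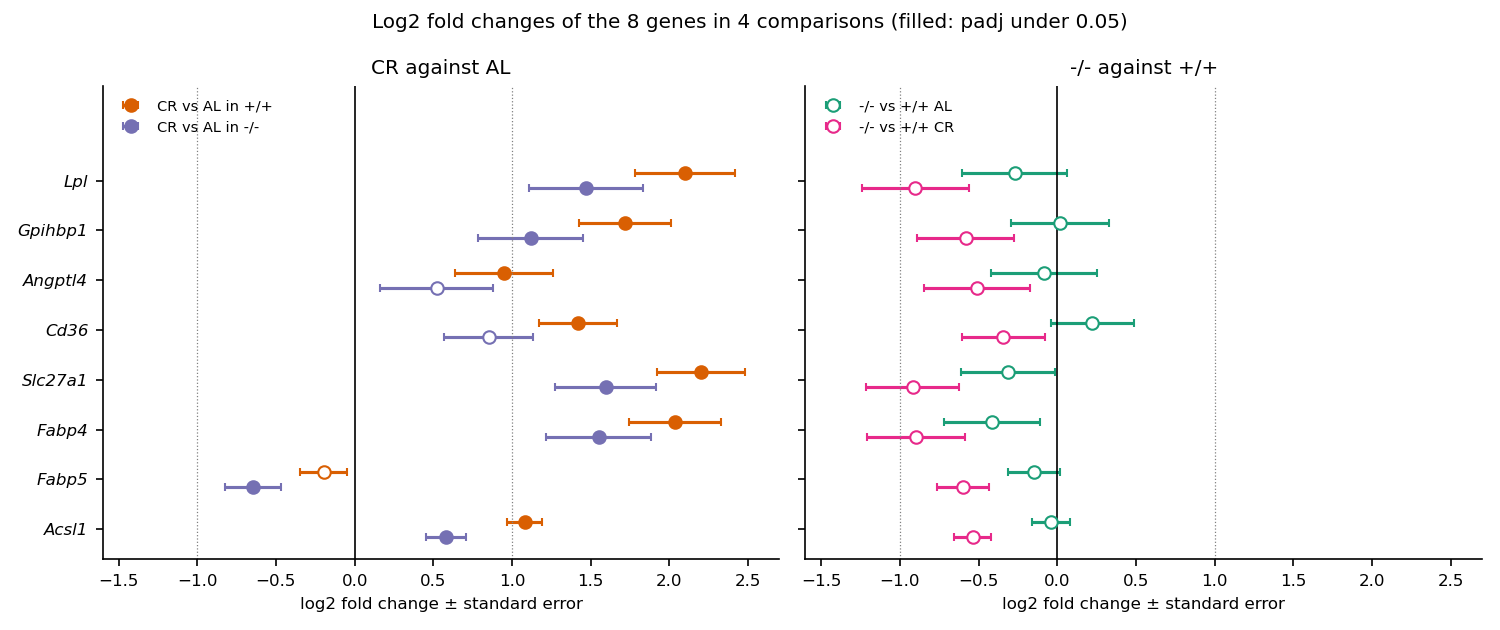
Log2 fold changes (points) with their standard errors (bars) for the 8 genes, with CR against AL in each genotype on the left and -/- against +/+ within each diet on the right. Filled points have padj under 0.05, and dotted lines mark log2 fold changes of -1 and 1. Points for BMAd-Pnpla2-/- mice lie to the left of those for BMAd-Pnpla2+/+ mice for all 8 genes on the left, and no point is filled on the right.

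Between genotypes fed AL, none of the 8 genes differed past the criteria or by padj, where 0.0% of all genes were called. Values overlapped in all 8, where 2.32% of all genes were higher and 3.14% lower without overlap. Log2 fold changes of -/- against +/+ ran from -0.41 (*Fabp4*, standard error 0.31) to 0.22 (*Cd36*, standard error 0.26), with padj = 0.9996 for each. At an unadjusted p under 0.05 there were 700 genes and none of the 8. DESeq2 called none of the 8 either, and only 13 of 17326 genes. *Gpihbp1* was nearest to equal, with a log2 change of 0.02 (standard error 0.31). *Acsl1* was at 276 ± 26.5 CPM (SD, n = 4) in BMAd-Pnpla2+/+ and 268 ± 10.9 CPM (SD, n = 3) in BMAd-Pnpla2-/- mice, a log2 change of -0.04 (standard error 0.12).

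Under CR the mean of each of the 8 genes was lower in BMAd-Pnpla2-/- than in BMAd-Pnpla2+/+ mice, and none passed a threshold. None of the 8 was called, where 0.00566% of all genes were, a single gene which was *Pnpla2*, and none had padj under 0.05, where 0.0113% of all genes did. *Slc27a1* averaged 101 ± 36.0 CPM (SD, n = 3) against 190.1 ± 60.4 CPM (SD, n = 4), or -0.92 on the log2 scale (standard error 0.30, padj = 0.107). For *Lpl* the averages were 707 ± 170.1 (SD, n = 3) and 1321 ± 492 CPM (SD, n = 4), or -0.90 on the log2 scale (standard error 0.34, padj = 0.145). *Fabp4* was also at -0.90 (standard error 0.31, padj = 0.123).

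The groups did not overlap in 2 of the 8 genes, *Acsl1* and *Fabp5*, which were lower in every -/- sample, as were 8.06% of all genes, and none was higher throughout, as 8.65% of all genes were. *Acsl1* had the lowest padj, with 402 ± 22.7 CPM (SD, n = 3) against 583 ± 86.4 CPM (SD, n = 4) and a log2 change of -0.54 (standard error 0.12, padj = 0.0604). *Fabp5* came next, with 27.2 ± 3.62 CPM (SD, n = 3) against 41.1 ± 8.95 CPM (SD, n = 4) and a log2 change of -0.60 (standard error 0.17, padj = 0.0822). *Gpihbp1* (-0.58), *Angptl4* (-0.51) and *Cd36* (-0.34) overlapped and had padj from 0.274 to 0.454. An unadjusted p under 0.05 was reached by 4095 genes and by 5 of the 8.

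This comparison turned on 1 library. With BMAd-Pnpla2+/+ CR replicate 4 left out, *Lpl* (-1.13, padj = 0.0281), *Slc27a1* (-1.11, padj = 0.0265) and *Fabp4* (-1.08, padj = 0.0352) met the criteria, 3 of the 8 where 2.36% of all genes were called. *Acsl1* (padj = 0.0172) and *Fabp5* (padj = 0.0304) then passed padj as well, 5 of the 8 where 12.0% of all genes did. Over all 22 alternatives padj ran from 0.0281 to 0.399 for *Lpl*, 0.0221 to 0.368 for *Slc27a1*, 0.0280 to 0.389 for *Fabp4*, 9.4e-04 to 0.275 for *Acsl1* and 0.0144 to 0.326 for *Fabp5*. With all 14 samples, the Wald test of DESeq2 put the same 5 genes under padj 0.05, where 13.1% of all genes passed, and none of them met the fold criterion, where 0.71% of all genes were called.

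Whether the genotypes differed in their response to CR was tested directly as the difference of the 2 log2 fold changes. It was negative for all 8 genes, from -0.63 (*Lpl*, standard error 0.47) to -0.43 (*Angptl4*, standard error 0.47), while 49.9% of all genes were negative. None of the 8 was called or had padj under 0.05, where 0.0% of all genes were called, and padj ran from 0.346 to 0.750. *Acsl1*, at -0.50 (standard error 0.17, padj = 0.346), was the only one of the 8 among the 1836 genes with an unadjusted p under 0.05. DESeq2 called none of the 8, and only 14 of 14244 genes. The 8 values are not independent, since all rest on the same 14 samples and 7 of the genes moved together across them.

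Across the 14 samples the log2 CPM values of the 7 genes other than *Fabp5* correlated in all 21 pairs with Pearson's r from 0.70 to 0.99, and *Fabp5* correlated with them at -0.28 to 0.14. These correlations take in the difference between diets and are given as a description. The genes whose pattern was most like that of *Fabp4*, out of 13044 tested genes that averaged 50 counts or more, were *Chpt1* (r = 0.99), a choline phosphotransferase of phospholipid synthesis, *Mrap* (0.99), the accessory protein of the ACTH receptor, and *B3galt2* (0.99). *Chpt1* was also first for *Lpl* and *Slc27a1* (0.99 for each), followed by *Aox1* and *Abcd2* for *Lpl* (0.98 for each) and *Mrap* and *Nrg4* for *Slc27a1* (0.99 and 0.98). For *Gpihbp1* they were *Adgrf5*, *Aplp2* and *Msrb3* (0.99 for each), for *Cd36* *Errfi1*, *Dusp18* and *Adgrg2* (0.98, 0.97 and 0.97), and for *Acsl1* *Fam110c*, *Gpt2* and the insulin-sensitive glucose transporter *Slc2a4* (0.99, 0.97 and 0.96). The closest genes were further off for *Angptl4* (*Mlph*, *Sspo* and *Iffo2*, 0.94, 0.94 and 0.93) and for *Fabp5* (*Zfp524*, *Crocc* and *Cep131*, 0.87, 0.86 and 0.86), and no gene had r over 0.9 with *Fabp5*. The genes with r over 0.9 numbered 887 for *Gpihbp1*, 677 for *Fabp4*, 636 for *Slc27a1*, 539 for *Lpl*, 335 for *Cd36*, 136 for *Acsl1* and 20 for *Angptl4*. The named genes are thus the first of many.

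Genes that act with the lipase were examined as a list of 21 partners and regulators, 18 of which were tested. With CR in BMAd-Pnpla2+/+ mice 5 of the 18 were called, all higher, and 9 had padj under 0.05, 8 higher and 1 lower. Beside these, 7.33% of all genes were called higher and 26.0% had padj under 0.05. The median log2 fold change of the list was 0.67, beside 0.00 over all genes. The called genes were the endothelial lipase *Lipg* (1.37, standard error 0.20, padj = 0.00146), the proprotein convertases *Pcsk6* (1.65, padj = 0.0128) and *Pcsk5* (1.26, padj = 0.0136), the very low density lipoprotein receptor *Vldlr* (1.15, padj = 0.0291) and the apolipoprotein *Apoc1* (1.79, padj = 0.0222). *Lipg* was at 17.1 ± 3.23 CPM (SD, n = 4) with AL feeding and 44.2 ± 8.29 CPM (SD, n = 4) with CR. It was the only one of the 18 called in BMAd-Pnpla2-/- mice (1.17, standard error 0.23, padj = 0.0117). There 4 had padj under 0.05, 1 higher and 3 lower (2.62% of all genes called higher, 11.6% by padj), and the median was 0.49. The genes of highest CPM on the list were *Apoe* (0.66, padj = 0.108), *Lrp1* (0.76, padj = 0.0568) and the lipase sorting receptor *Sort1* (0.27, padj = 0.0472) in BMAd-Pnpla2+/+ mice. No gene of the list was called in the other 3 comparisons.

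Other genes of fatty acid uptake, binding and activation formed a list of 28, of which 17 were tested, and *Fabp1*, *Fabp2*, *Fabp3*, *Fabp6*, *Fabp7*, *Slc27a2* and *Slc27a5* were among those too low to test. Both caveolae genes of the list were called in both genotypes. *Cav1* rose from 27.1 ± 11.6 to 135 ± 57.0 CPM (SD, n = 4) in BMAd-Pnpla2+/+ mice (log2 fold change 2.32, standard error 0.43, padj = 0.00395) and from 17.9 ± 11.03 to 91.7 ± 37.4 CPM (SD, n = 3) in BMAd-Pnpla2-/- mice (2.36, standard error 0.50, padj = 0.0144). *Cav2* changed by 1.79 (padj = 0.00446) and 2.02 (padj = 0.0118). They were the only 2 of the 17 called in either genotype, with 7 and 3 genes at padj under 0.05 and list medians of 0.20 and 0.14. Over all genes 7.33% and 2.62% were called higher and 26.0% and 11.6% had padj under 0.05. The genes of highest CPM here did not pass padj with CR in either genotype: *Scarb1* was at 0.25 and -0.11, *Slc27a4*, the FATP4 gene, at -0.18 and -0.37, and *Zdhhc5*, which palmitoylates CD36, at -0.01 and -0.08. No gene of this list was called between genotypes or for the difference of the responses.

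Of 16 known transcriptional regulators of the 8 genes, all tested, 4 were called with CR in BMAd-Pnpla2+/+ mice, all higher, and 6 had padj under 0.05, with a list median of 0.25 and with 7.33% and 26.0% of all genes as the background. *Pparg*, the master regulator of adipocyte genes, went from 37.6 ± 8.52 to 85.3 ± 22.5 CPM (SD, n = 4), a log2 change of 1.18 (standard error 0.25, padj = 0.00741). *Cebpa* rose by 1.19 (padj = 0.00551), from 168 ± 34.3 to 384 ± 126 CPM (SD, n = 4). *Ppara* (1.99, padj = 0.00414) and *Rxrg* (1.84, padj = 0.00576) were also called, at mean levels of at most 1.30 and 2.15 CPM in every group. *Ppard*, at -0.04 (padj = 0.83), was not. In BMAd-Pnpla2-/- mice none of the 16 was called or had padj under 0.05 (3.53% and 11.6% of all genes), with a median of 0.22, and *Pparg* (0.57, padj = 0.216) and *Cebpa* (0.52, padj = 0.231) were below the fold criterion. The difference between the responses was not past the threshold for any of the 16 (lowest padj = 0.396), and none was called between genotypes.

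Markers of the cells in the plugs are given beside these results, with 7.33% and 2.62% of all genes called higher with CR in BMAd-Pnpla2+/+ and BMAd-Pnpla2-/- mice, 9.28% and 3.53% called in either direction and 26.0% and 11.6% with padj under 0.05 as the background for each list. Of 12 adipocyte markers, 10 were called higher with CR in BMAd-Pnpla2+/+ mice (median log2 fold change 1.89) and 10 in BMAd-Pnpla2-/- mice (median 2.19). Their summed level ranged from 622 to 1733 CPM in BMAd-Pnpla2+/+ AL (702 at most without replicate 1), from 1549 to 4213 CPM in BMAd-Pnpla2+/+ CR (3084 at least without replicate 4), from 255 to 558 CPM in BMAd-Pnpla2-/- AL and from 1037 to 1648 CPM in BMAd-Pnpla2-/- CR samples. All 12 were lower on average in BMAd-Pnpla2-/- mice on both diets (medians -1.16 AL and -1.03 CR) with none called. The part of the adipocyte markers in the results for the 8 genes was not tested.

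Of 12 endothelial markers, 2 were called higher in BMAd-Pnpla2+/+ mice with CR (8 by padj, median 0.74) and none in BMAd-Pnpla2-/- mice (median 0.35), and their sum ranged from 724 to 1046 CPM in BMAd-Pnpla2+/+ AL, 907 to 1809 in BMAd-Pnpla2+/+ CR, 721 to 920.1 in BMAd-Pnpla2-/- AL and 799.9 to 1033 CPM in BMAd-Pnpla2-/- CR samples. Of the 11 macrophage markers 1 was called higher in each genotype, and the sums overlapped between all groups, from 1370.3 to 2545 CPM. Neither part was tested. With CR in BMAd-Pnpla2+/+ and BMAd-Pnpla2-/- mice, in this order, the tested markers called lower numbered 2 and 0 of 12 for neutrophils, 2 and 1 of 8 for megakaryocytes and 3 and 3 of 9 for the B lineage. Those called higher numbered 0 and 1 of 7 for stromal cells and 4 and 1 of 7 for osteoblasts, and none was called of 10 erythroid and 7 skeletal muscle markers. No marker of any list was called between genotypes or for the difference of the responses. The neutrophil sum ranged from 15416 to 36784 CPM, the erythroid sum from 10561 to 51766 CPM and the muscle sum from 8.41 to 133 CPM over all samples. The highest muscle sums, 48.0 and 133 CPM, were in BMAd-Pnpla2-/- CR replicates 2 and 3, and the other groups reached at most 35.2 CPM. Within BMAd-Pnpla2+/+ CR the erythroid sum ran from 10561 to 51382 CPM, highest in replicate 4. The part of these cells was not tested either.

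**Figure D4:**
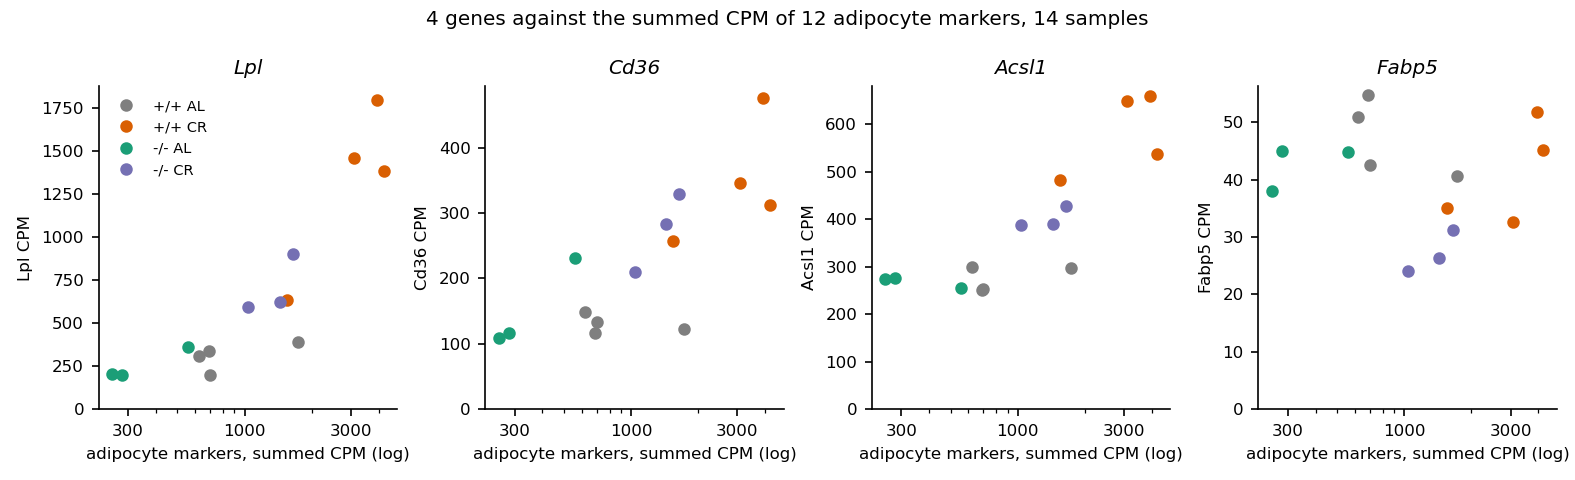
CPM of *Lpl*, *Cd36*, *Acsl1* and *Fabp5* (vertical axes, from 0) against the summed CPM of 12 adipocyte markers (horizontal axes, log scale), with 1 point per sample and groups by colour. *Lpl* is highest in the 3 BMAd-Pnpla2+/+ CR samples with marker sums of 3084 to 4213 CPM, and *Fabp5* is not.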

How the data were processed

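RNA from marrow plugs of 14 pools of 2 mice was sequenced in pairs by the authors, who aligned reads to mm10 with STAR after quality checks with FastQC 0.11.9 and compared groups with DESeq2, per the labels and the methods of the study. They deposited STAR counts per gene and sample (unstranded, first strand and reverse strand) and 1 matrix of raw counts. In that matrix 11 samples hold reverse-strand counts and the 3 BMAd-Pnpla2-/- CR samples hold unstranded counts, so the unstranded counts of the per-sample files were used for all samples, as deposited. Read pairs that STAR placed at more than 1 position (5.78% to 11.3% per sample) are in no gene's count. The 4 summary lines of each file were left out of library sizes. No other sample column was left unused.

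The 8 genes, the lists and the rule for named genes were chosen with earlier results of these data known. Groups were taken from the sample titles. Nothing in the labels says that the pools came from separate litters or days, and p-values measure the spread between these samples. Scaling was by TMM and the filter by filterByExpr on the 4 groups. The model of group means was fitted in edgeR 4.0.16 (R 4.3.3) with glmQLFit, robust, and tested with glmQLFTest, two-sided, with Benjamini-Hochberg adjustment within each of 5 comparisons. These share samples. The standard error is the log2 fold change over the square root of F. The code of the fit was checked on simulated counts with the same spread setting for every gene. That check does not measure how the fit performs at the spread of these samples. Correlations used log2 CPM with a prior count of 2. Transcript lengths and positions were from GENCODE M21, in which 54349 of 55401 identifiers were found with the same version, and promoter windows from RefSeq.

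Genes named were the 8, *Pnpla2*, for each of the first 2 lists every called gene and the 3 of highest mean CPM, for the list of regulators every called gene with *Pparg*, *Ppard* and *Ppara*, and for each of the 8 the 3 genes of highest Pearson r. A further gene of these lists is not reported here. Alternatives were other scaling, no filter, DESeq2 1.42.0, the replicate block, matrix genes alone, matrix counts, reverse-strand counts, the compared groups alone and each sample left out. Same-numbered samples deviated together in every pair in 1 comparison, -/- against +/+ with CR (r = 0.41, 0.11 and 0.39), and not in the others, and the titles do not say what a number stands for.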

Additional observations from a re-analysis of the deposited data

Results flagged for a closer look

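*Angptl4* in BMAd-Pnpla2+/+ AL replicate 4 was at 33.6 CPM, far below the other 3 samples of its group, which lay between 48.5 and 51.3 CPM. Its gap to the nearest of them was over the critical value of Dixon's test for 4 samples. The test was run on 16 groups of 4 samples (8 genes in both BMAd-Pnpla2+/+ groups), and chance alone flags about 1 in 20.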

How the results depend on the processing

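Over 888 recalculated log2 fold changes of single genes, 848 kept their direction and their side of the criteria. With CR in BMAd-Pnpla2+/+ mice 6 of the 8 genes were called, and 6 to 7 with each sample left out in turn. Over all genes 1639 of 17671 were called, and 1062 to 2274 in those fits. In BMAd-Pnpla2-/- mice 4 were called, 2 with no low-count filter (the cause was not tested), and 0 to 5 with each sample left out. Over all genes these numbers were 624 of 17671, 436 of 34543 and 122 to 766. Of those 14 fits, 6 leave 2 samples in an arm. Between genotypes under CR 0 were called, and 0 to 3 with each sample left out, and AL genotypes and the difference of the responses gave 0 under every alternative. Over all genes 1 was called between genotypes under CR, 0 to 416 with each sample left out and 1056 with matrix counts. AL genotypes gave 0 over all genes except for 13 with DESeq2. The difference of the responses gave 0 except for 14 with DESeq2 and 484 with matrix counts.

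Log2 fold changes near 0 between genotypes fed AL changed sign. With each sample left out in turn *Gpihbp1* ranged from -0.36 to 0.28, *Angptl4* from -0.38 to 0.10, *Cd36* from -0.19 to 0.42 and *Acsl1* from -0.077 to 0.0086. With the replicate block *Gpihbp1* was at -0.20, and the block changed no call in any comparison, with 6, 4, 0, 0 and 0 genes called. The cause was not tested.

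With 3 or 4 pools per group, a gene that missed the criteria between genotypes is not shown to be equal. Under CR DESeq2 put 5 of the 8 and 13.1% of all genes under padj 0.05. The unstranded BMAd-Pnpla2-/- CR libraries enter 3 of the 5 comparisons. Reverse-strand counts were therefore tried only in the comparisons without those libraries.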

Other observations

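Set against the adipocyte markers of the same sample, a measure added after the values were seen, *Cd36* CPM amounted to 41.3% to 42.7% of the summed CPM of the 12 markers in BMAd-Pnpla2-/- AL samples, 7.04% to 23.9% in BMAd-Pnpla2+/+ AL (16.8% at least without replicate 1, which has the highest marker sum of its group), 7.41% to 16.6% in BMAd-Pnpla2+/+ CR and 19.7% to 20.3% in BMAd-Pnpla2-/- CR samples. The *Cd36* shares were therefore highest in BMAd-Pnpla2-/- AL samples, with no overlap with any other group. This was not particular to *Cd36*, since it also held for *Lpl*, *Fabp4*, *Gpihbp1* and *Angptl4*. *Gpihbp1* had 5.21% to 7.04% there and at most 3.91% elsewhere, and *Angptl4* 10.7% to 14.8% and at most 7.80%. *Slc27a1*, *Fabp5* and *Acsl1* overlapped with another group. The marker sum that divides these values was lowest in BMAd-Pnpla2-/- AL samples (255 to 558 CPM). *Lpl* amounted to 65.3% to 79.5% in BMAd-Pnpla2-/- AL and 22.5% to 49.9% in BMAd-Pnpla2+/+ AL samples (28.1% at least without replicate 1), while with CR it was at 43.5% to 57.2% and 32.9% to 47.4%, ranges that overlap. *Fabp4* stood at 50.3% to 53.1% and 18.6% to 37.6% with AL feeding (31.1% at least without replicate 1) and at 37.2% to 43.2% and 27.0% to 39.6% with CR, where the genotypes overlap. *Fabp5* had its lowest shares with CR, 1.06% to 2.26% in BMAd-Pnpla2+/+ and 1.83% to 2.32% in BMAd-Pnpla2-/- mice, against 2.34% to 8.18% (6.05% at least without replicate 1) and 8.02% to 15.97% AL. No test was run on these shares, and *Cfd* makes up the largest share of the marker sum.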
